A study of Drosophila melanogaster with 2 samples.

Results

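Peaks of the Drosophila melanogaster repressor Krüppel (Kr) that were centred on core promoters were described here. They were the 225 peaks of the reproducible list, which held 1877 others, whose summit lay within 100 bp of a transcription start site (TSS) of a protein-coding gene. This was 10.7% of the list (Wilson 95% interval 9.45% to 12.1%, counting error only). They are called core peaks below and were set against the 382 peaks whose summit lay over 100 and up to 500 bp from the nearest TSS, called flank peaks, which were 18.2% of the list. The series held 1 group, of whole embryos of mixed sex aged 0 to 10 h, from a transgenic line that stably expressed Kr with GFP fused to its C terminus. Sonicated chromatin was precipitated in 2 biological replicates that the labels number 2 and 3. The antibody was to GFP by the labels' description, while their antibody entry reads Kr, and which of these proteins it was raised against was not settled by the files. The labels do not settle whether the tagged copy replaced or joined the endogenous one, and whole embryos mix cells with and without Kr. There was no untagged, untreated or mutant group, and the control library was not analysed here.

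Kr is a zinc-finger protein of the gap class, made in the central part of the early embryo and later in nervous system, muscle precursors and other tissues, and is best known for repressing segmentation genes through enhancers that often lie far from the start of transcription. A core promoter is the short stretch around the TSS where RNA polymerase II is loaded. In flies, housekeeping genes often carry the DRE, bound by Dref, or Motif 1, bound by M1BP. Developmental genes more often carry an initiator and GAGA repeats, which are bound by Trl. Genes for ribosomal proteins use a pyrimidine-rich start called the TCT initiator.

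The promoters below are those of 5 of the highest core peaks, shown first, of 4 core peaks with a DRE and of 1 with a Kr word beside the TSS. All are from dm6 and are written on the strand of the gene, 5′ to 3′, from 110 bases before to 20 bases after the TSS, which is base 111 of 131. Capitals mark a Kr word (AAGGGTT or its complement AACCCTT), a DRE (TATCGATA) or the E-box CAGCTG. Sequence is from the RefSeq copy of the Release 6 genome, and genes without a shown run are named only. The DRE set and Spt3 were added after their words were known.
CG14100, chr3L:19590504-19590634, minus strand: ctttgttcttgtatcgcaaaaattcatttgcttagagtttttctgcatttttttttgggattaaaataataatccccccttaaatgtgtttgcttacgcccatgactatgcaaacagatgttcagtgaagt
Bulli, chr3L:6488571-6488701, plus strand: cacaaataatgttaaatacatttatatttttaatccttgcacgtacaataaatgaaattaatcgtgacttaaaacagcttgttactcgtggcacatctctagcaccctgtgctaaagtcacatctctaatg
flr, chr3L:13412733-13412863, plus strand: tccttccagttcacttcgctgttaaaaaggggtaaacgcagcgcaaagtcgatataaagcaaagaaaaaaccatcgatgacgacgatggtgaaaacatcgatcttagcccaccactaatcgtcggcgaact
RpS27, chr3R:25247494-25247624, minus strand: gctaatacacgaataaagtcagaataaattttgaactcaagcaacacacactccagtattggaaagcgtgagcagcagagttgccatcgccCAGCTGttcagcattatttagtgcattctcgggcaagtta
koko, chr3R:18403113-18403243, plus strand: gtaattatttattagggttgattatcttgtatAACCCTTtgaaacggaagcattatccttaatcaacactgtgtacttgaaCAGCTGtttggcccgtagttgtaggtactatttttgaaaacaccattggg
ghi, chr3L:9451766-9451896, plus strand: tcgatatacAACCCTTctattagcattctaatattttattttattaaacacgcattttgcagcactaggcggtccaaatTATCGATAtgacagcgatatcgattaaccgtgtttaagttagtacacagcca
RpL28, chr3L:3222940-3223070, minus strand: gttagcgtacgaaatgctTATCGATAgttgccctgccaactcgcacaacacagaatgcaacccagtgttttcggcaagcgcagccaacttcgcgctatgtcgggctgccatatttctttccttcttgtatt
RpS10b, chrX:19597921-19598051, plus strand: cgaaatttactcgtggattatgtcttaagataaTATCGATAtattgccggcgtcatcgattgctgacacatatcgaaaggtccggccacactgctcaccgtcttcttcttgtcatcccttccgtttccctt
eEF1gamma, chr3R:29220062-29220192, plus strand: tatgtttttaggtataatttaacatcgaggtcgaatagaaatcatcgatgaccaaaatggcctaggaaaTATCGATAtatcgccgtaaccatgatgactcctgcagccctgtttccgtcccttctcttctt
Spt3, chr3R:12017046-12017176, plus strand: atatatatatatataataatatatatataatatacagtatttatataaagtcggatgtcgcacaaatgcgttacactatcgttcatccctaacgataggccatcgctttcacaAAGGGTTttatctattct
The 3 highest of these, CG14100, Bulli and flr, held none of the words marked in capitals. The koko promoter held a Kr word starting 78 bases before the TSS, beside a summit 89 bp before it. The ghi promoter held a Kr word at position -101 and a DRE at -31, on either side of its summit at -61. The DRE began at -92 in RpL28, at -77 in RpS10b and at -41 in eEF1gamma, and the Spt3 Kr word lay at 3, past the TSS.

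Signal is the height that the authors' lists give a peak. Its scale and the read depth behind it are unknown, so it was compared within a list. The reproducible list was the part of the pooled peaks with the highest signal, set by the irreproducible discovery rate (IDR), and so every core peak had passed on signal from both replicates together. Permissive lists of 30000 peaks for each replicate gave the replicate values. A core peak was matched to the nearest summit within 250 bp in each. Both replicates matched 219 of 225 core peaks (97.3%), against 380 of 382 flank peaks. RpL24 and Ube4B had no match in replicate 2. Cip4, CycE, smp-30 and 1 of the sli peaks had none in replicate 3. The 225 peaks had 223 nearest genes, since sli and tai each had a pair of core peaks at separate TSSs. In 11 core peaks the TSSs of more than 1 gene lay within 100 bp, so the gene cannot be told apart. Another IDR summit lay within 500 bp of 24 core peaks, and 11 core peaks shared their matched peak in 1 of the replicates with another IDR peak.

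Core peaks were about as high as flank peaks. Their signal had a median of 129 and ran between 103 and 425, against a median of 137 and a range of 103 to 1131 for flank peaks. In replicate 2 the medians were 77.2 for core peaks and 85.3 for flank peaks. In replicate 3 they were 59.3 for core peaks and 60.6 for flank peaks. The log2 ratio of core to flank medians was -0.14 in replicate 2 and -0.03 in replicate 3, a mean of -0.09 ± 0.08 (SD, n = 2; exact sign-flip test, two-sided p = 0.5, which is the smallest p that 2 replicates allow). Core peaks at ribosomal protein genes gave -0.01 in replicate 2 and 0.19 in replicate 3 against flank peaks (mean 0.09 ± 0.14, SD, n = 2; exact p = 1). Core peaks at other genes gave -0.15 in replicate 2 and -0.08 in replicate 3 (mean -0.11 ± 0.05, SD, n = 2; exact sign-flip p = 0.5). For all core peaks and the ribosomal ones, the difference from flank height was thus smaller than or close to the spread between replicates. For core peaks at other genes it was larger than that spread, with the same sign in both replicates.

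**Figure D1:**
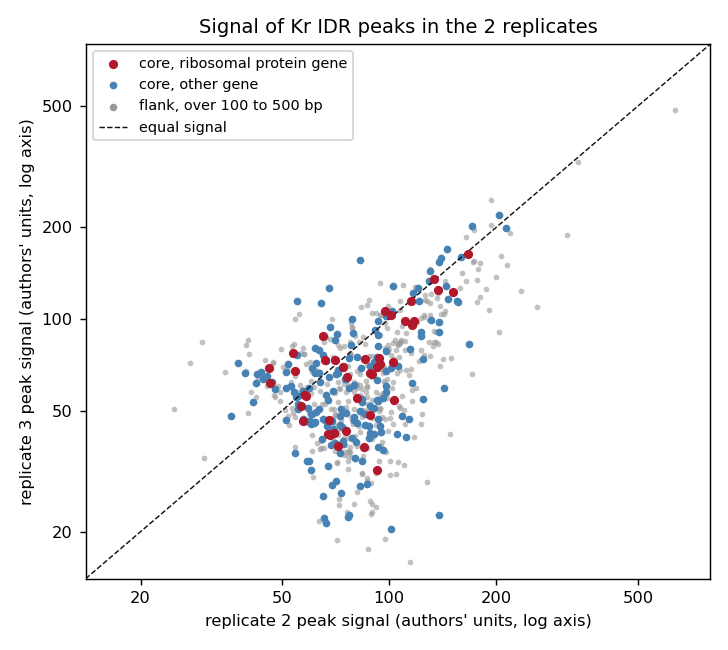
Signal of each matched peak in replicate 2 (x axis) and replicate 3 (y axis), in the authors' units on log axes. Red points are core peaks at ribosomal protein genes, blue points other core peaks and grey points flank peaks. Most points lie below the dashed line of equal signal, and the points of highest signal are grey.

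The replicates ranked the core peaks unevenly. Of the 225, 115 (51.1%) were, in both replicates, among as many of the highest peaks as the IDR list held, against 228 of 382 flank peaks (59.7%) and 53.9% of the whole IDR list. The share of core peaks was thus near that of the list. It was 25 of 42 at ribosomal protein genes (59.5%) and 90 of 183 at other genes (49.2%). Replicate 2 signal was usually the larger of the pair, and the median log2 ratio of replicate 2 to replicate 3 was 0.34 in core peaks, 0.46 in flank peaks and 0.60 in IDR peaks farther than 500 bp from a TSS. Replicate 3 was the higher in 63 core peaks (28.0%), in 88 flank peaks and in 239 of the 1495 farther peaks. Among the 25 highest core peaks, replicate 3 was the higher in 13, against 50 of the other 200. The summits of the replicates lay a median of 32 bp apart in core peaks and 36 bp apart in flank peaks.

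The highest core peak was at CG14100, 84 bp before the TSS, with a pooled signal of 425. It had 203 in replicate 2 and 219 in replicate 3 (mean 211 ± 10.9, SD, n = 2). Its rank in the IDR list was 32, so no core peak was among the very highest of the list. Bulli, a subunit of the Mon1-Ccz1 complex that activates Rab7, had 213 in replicate 2 and 200 in replicate 3 (mean 206 ± 9.57, SD, n = 2). The flr peak, at the gene of the actin-disassembly factor Aip1, had 171 in replicate 2 and 201 in replicate 3 (mean 186 ± 21.6, SD, n = 2). RpS27, a protein of the small ribosomal subunit, had 167 in replicate 2 and 164 in replicate 3 (mean 165 ± 2.22, SD, n = 2). These 4 were high in both replicates, with differences of either sign between them.

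The next of the 15 highest were at Alg3 (318.5), a mannosyltransferase of N-glycan synthesis, koko (307), Ugalt (294), the UDP-galactose transporter, and Ubc10 (288), a ubiquitin-conjugating enzyme, all pooled signals. RIC-3 (276), which assists acetylcholine receptor assembly, Fkbp14 (272), a prolyl isomerase, RpL7 (269.5) and Pngl (269), the peptide N-glycanase, followed. Hsp83 (266), the fly Hsp90, CenG1A (265), an Arf GTPase-activating protein, and RpL30 (265) completed the list. None of the 15 belongs to the segmentation lists. Little is read from this, since these lists held only 7 to 15 genes each, of 13945, and 1 core peak, at fz2. The RpL7 peak lay within 100 bp of the TSS of Ripalpha as well. At 7 of the 25 highest core peaks the peak was narrower than the 440 bp of all other core peaks, with a width of 110 to 218 bp. All 7 had their summit before the TSS, by 27 to 95 bp.

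Summits lay mostly just before the TSS. Of the 225, 143 (63.6%) were upstream on the strand of the gene, and the median position was -20 bp (replicate 2 summits -15, replicate 3 summits -24). Core peaks at ribosomal protein genes had a median position of -3.5 bp, and the others -28 bp. The bin from -50 to -26 bp held most, 41 peaks, and only 13 lay 75 to 100 bp past the TSS. Over the replicates' own highest peaks, as many as the IDR list held, 62.4% ± 4.65 of core summits were upstream, against 74.2% ± 4.84 of flank summits (SD, n = 2 each). The difference was -11.9 ± 0.19 percentage points (SD, n = 2; exact sign-flip test, two-sided p = 0.5, the smallest possible). It had the same sign in both replicates.

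**Figure D2:**
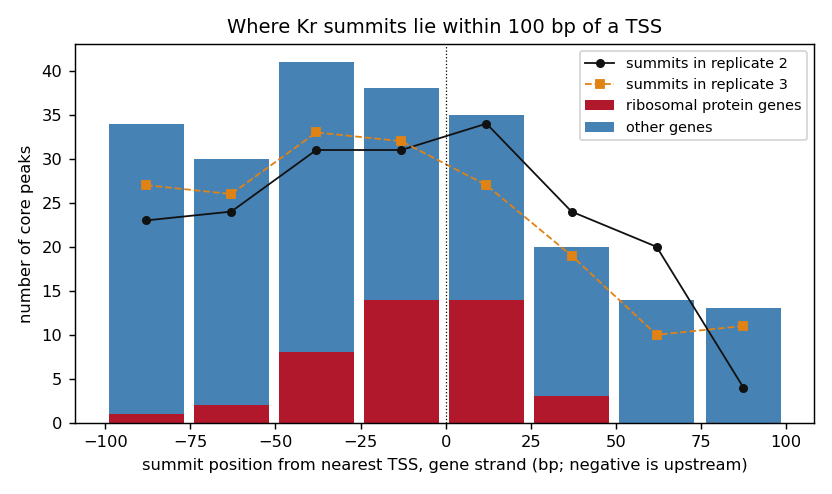
Number of core peaks (y axis) by the position of the summit from the nearest TSS in bp (x axis, negative is upstream on the gene's strand), in bins of 25 bp. Stacked bars are pooled summits, at ribosomal protein genes in red and at other genes in blue, and lines are the summits of the matched peaks of each replicate that fell in the plotted range. Ribosomal protein genes sit mainly in the bins on either side of the TSS, 14 in each.

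Genes for cytosolic ribosomal proteins made up the most frequent class. An IDR summit lay within 100 bp of a TSS of 42 of 93 such genes (45.2%, Wilson 95% interval 35.4% to 55.3%), beside 1.68% of all 13945 protein-coding genes. None of the 93 had its nearest summit farther out, up to 500 bp, instead, beside 3.26% of all genes. The 42 included 26 among the highest 1051 IDR peaks (61.9%), against 46.2% of all core peaks and 54.5% of flank peaks. Those highest peaks were 50% of the IDR list, and the Wilson 95% lower bound for the 42, 46.8%, lay below that. In the replicates' own highest peaks, the count of ribosomal protein genes with a core summit was 32 in replicate 2 and 39 in replicate 3 (35.5 ± 4.95, SD, n = 2). Proteins of both ribosomal subunits were among the 42, with the stalk proteins RpLP0 and RpLP1. Neither untagged embryos nor the control library were analysed here, so signal that does not depend on Kr cannot be told apart from Kr binding at these promoters.

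Within the ribosomal class, signal ran from RpL18 at 103 to RpS27 at 339. RpL30 had 151 in replicate 2 and 123 in replicate 3 (mean 137 ± 20.2, SD, n = 2). RpL7 had 133 in replicate 2 and 135 in replicate 3 (mean 134 ± 1.17, SD, n = 2), and RpS4 had 137 in replicate 2 and 124 in replicate 3 (mean 131 ± 8.88, SD, n = 2). These 3 were among the higher core peaks in both replicates. RpS3A, the only core peak on chromosome 4, had 92.2 in replicate 2 and 31.8 in replicate 3 (mean 62.0 ± 42.7, SD, n = 2), the most uneven pair of the class. RpS5a had 45.9 in replicate 2 and 68.9 in replicate 3 (mean 57.4 ± 16.3, SD, n = 2), the pair most in favour of replicate 3.

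Ribosomal protein genes without a core IDR peak were not all without signal. Of those 51 genes, 33 had a pooled permissive summit within 100 bp of a TSS, and 15 had none in any list. RpL7A, for example, had 58.6 in replicate 2 and 43.3 in replicate 3, at a pooled signal of 100 just under the IDR list. Among the 15 were paralogs such as RpS19b, RpS5b and RpL24-like, beside RpS3 and RpL21. Over both replicates' permissive lists, 62 of the 93 genes (66.7%) had a summit within 100 bp, beside 6.37% of all genes. Permissive lists hold many weak peaks by construction. Reads from near-identical copies of ribosomal protein genes could be placed at either, and how such reads were treated is not given in the sources used here.

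Other classes of constitutively used genes had core peaks at shares mostly near the 1.68% of all genes, and for each list with none the Wilson 95% upper bound lay above that share. Mitochondrial ribosomal proteins had 1 of 73 genes with a core peak, mRpL23, with 63.6 in replicate 2 and 66.4 in replicate 3, and another 7 with a flank peak only. Translation factors had 3 of 53 (5.66%, Wilson 95% interval 1.94% to 15.4%). These were eEF1gamma, of the elongation factor 1 complex (68.0 in replicate 2, 94.0 in replicate 3), eIF3h, an initiation factor (67.3 and 32.9 in the same order), and eIF6, which keeps ribosomal subunits apart (46.7 and 61.9). The eIF3h peak lay within 100 bp of the TSS of senju too. In the permissive lists of both replicates, 15 of 53 translation factor genes (28.3%) had a summit there. Chaperones had 1 of 36, Hsp83, with 156 in replicate 2 and 114 in replicate 3. RNA polymerase subunits had 1 of 30, Polr2C, with 98.2 in replicate 2 and 102 in replicate 3. No core peak was found for 33 aminoacyl-tRNA synthetases, 48 proteasome subunits, 92 respiratory chain and ATP synthase genes, 33 vacuolar ATPase subunits, 33 spliceosomal genes, 21 nucleoporins and 6 histone variants. For the respiratory list, 0 of 92 leaves a Wilson 95% upper bound of 4.01%, and for the proteasome 7.41%.

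Segmentation and patterning lists had IDR summits near promoters mostly more than 100 bp from the TSS, while weaker summits were found within it. No core peak lay at any of 7 gap genes, 8 head gap genes, 11 pair-rule genes, 15 homeotic and cofactor genes or 9 maternal and terminal factors. Each of these lists had 3 genes with a flank peak only: Kr, gt and tll among gap genes, cnc, ems and slp2 among head gap genes, ftz, opa and slp2 among pair-rule genes, hth, tsh and zen among homeotic and cofactor genes, and cic, gro and tll among maternal and terminal factors. With lists this small the Wilson 95% upper bound for 0 core peaks is 35.4% for gap genes and 25.9% for pair-rule genes, beside 1.68% of all genes with a core peak and 3.26% with a flank peak only. In the permissive lists of both replicates, a summit lay within 100 bp of a TSS at 5 of 11 pair-rule genes (45.5%), 5 of 15 segment-polarity genes (33.3%), 2 of 8 head gap genes, 2 of 15 homeotic and cofactor genes, 2 of 9 maternal and terminal factors and 1 of 7 gap genes, beside 6.37% of all genes. Among the highest peaks of replicate 2, as many as the IDR list held, 2 gap genes had a summit within 100 bp, and among those of replicate 3 none had. Segment-polarity genes had 1 core peak of 15 genes, at the Wingless receptor gene fz2, with 66.9 in replicate 2 and 44.5 in replicate 3. Of 18 neural markers only the proneural gene sc had one, with 100.9 in replicate 2 and 20.4 in replicate 3, and 4 had a flank peak only. Mesoderm and muscle markers had none among 15 genes, and neither had 120 odorant and gustatory receptor genes or 94 genes used mainly in adults.

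**Figure D3:**
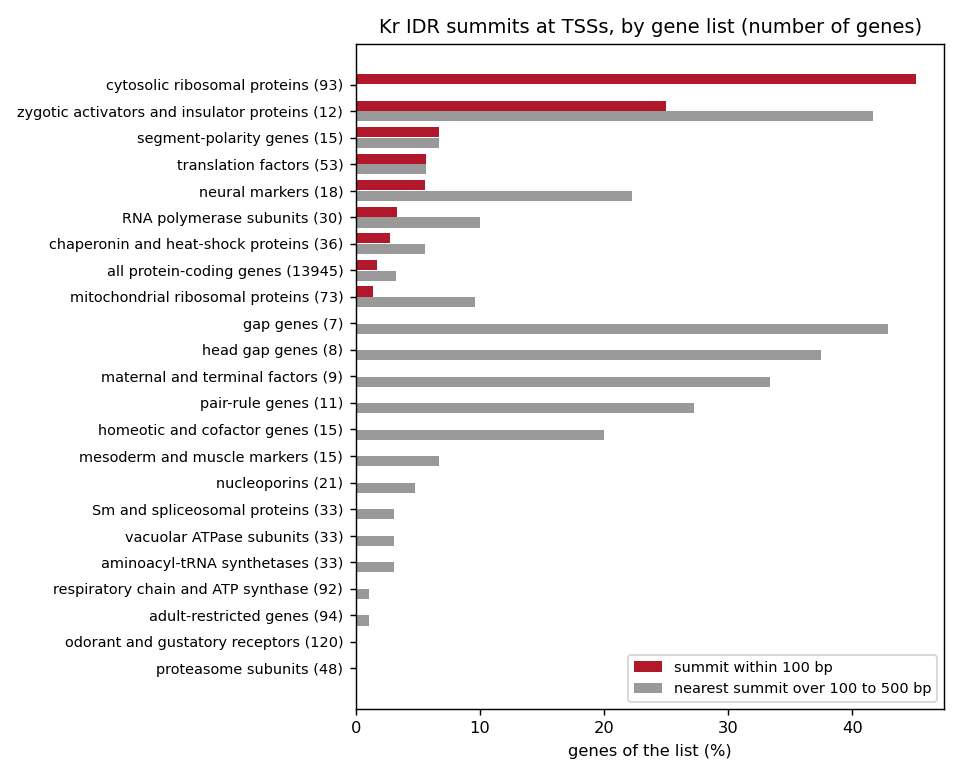
Percent of the genes of each list (number of genes in brackets) with an IDR summit within 100 bp of a TSS (red) or with the nearest summit over 100 and up to 500 bp away (grey), for lists of at least 7 genes. Cytosolic ribosomal proteins have the longest red bar, 45.2%, and no grey bar, while the segmentation lists have grey bars and no red ones except the segment-polarity list.

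Genes for promoter-binding and insulator proteins were counted as well. Of 12 zygotic activators and insulator proteins, 3 had a core peak (Wilson 95% interval 8.89% to 53.2%) and 5 a flank peak only (41.7%), beside 1.68% and 3.26% of all genes. The core peaks were at pzg, whose product works with Dref, at Cp190, an insulator protein, and at Dref, which shared its peak with RpL13. The pzg peak had 123 in replicate 2 and 90.9 in replicate 3 (mean 107 ± 22.7, SD, n = 2), Cp190 had 65.8 and 46.5 in the same order (56.2 ± 13.6), and the peak of RpL13 and Dref had 70.0 and 42.2 (56.1 ± 19.7). All 3 were higher in replicate 2. The flank peaks were at M1BP, Trl, su(Hw), opa and Chro, and the Chro summit was the nearest of all outside the limit of 100 bp.

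Developmental genes outside the lists did have core peaks, and 21 of them were picked after their values were seen. They comprised 22 core peaks, with ranks 597 to 2035 in the IDR list and a median signal of 125. Among secreted ligands were dpp, a BMP, with 80.9 in replicate 2 and 54.9 in replicate 3, bnl, an FGF, with 85.5 and 48.8 in the same order, and egr, a TNF, with 93.0 and 46.9. Genes of axon guidance included robo2, a Slit receptor (90.6 and 41.8), comm, which sorts Robo receptors (80.3 and 34.8), and NetA, a Netrin (70.6 and 29.3). Transcription factor genes included vnd (75.4 and 49.0), pnr (81.3 and 45.6, the first from a replicate 2 peak shared with another IDR peak), sd (109 and 47.9) and bi (51.1 and 46.5). Of cell-cycle regulators, stg, the Cdc25 phosphatase, had 72.0 in replicate 2 and 66.4 in replicate 3, and dap, a cyclin-dependent kinase inhibitor, had 74.2 and 39.6. E(spl)m8-HLH, a Notch target, had 124 in replicate 2 and 54.5 in replicate 3. Replicate 2 was the higher in 16 of the 22 peaks (72.7%), and replicate 3 was the higher in 28.0% of all core peaks. The peaks named with values here were all among the 16. By the same count 10 of the 22 (45.5%) were among the highest of both replicates, beside 51.1% of all core peaks. Both shares were near those of core peaks as a whole. None of the 22 had TSSs on both strands within 500 bp of the summit, beside 39.1% of all core peaks. The share was 36.1% of core peaks outside the ribosomal protein genes. The 22 were a picked set, so no trait of developmental genes is read from this.

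In windows around the TSS, the DRE was more frequent in core peaks than in promoters in general, and Motif 1 was not. Within 100 bp of the summit, on either strand, the DRE (TATCGATA) was present in 22 core peaks (9.78%, Wilson 95% interval 6.55% to 14.4%), and within 100 bp of the TSS it was present in 7.84% of all promoters. It was present in 1 flank peak (0.262%), but windows around flank summits mostly leave out the TSS. The distance used to choose the peaks thus bears on this contrast, and how much of it is due to that was not tested. Within 100 bp of the nearest TSS, where the windows are alike, the DRE was present in 27 core peaks (12.0%, 8.38% to 16.9%) and 12 flank peaks (3.14%, 1.81% to 5.41%). These windows were added after seeing the data. In the replicates' own highest peaks the share around the TSS was 10.4% in core against 3.45% in flank peaks for replicate 2, and 12.3% in core against 4.22% in flank peaks for replicate 3. The mean difference was 7.52 ± 0.85 percentage points (SD, n = 2; exact sign-flip test, two-sided p = 0.5, the smallest possible), larger than the spread between replicates. Of core peaks at ribosomal protein genes, 10 of 42 held the DRE around the summit (23.8%), against 12 of 183 others (6.56%). Around the nearest TSS it was present in 12 of the 42 (28.6%) and in 15 of the 183 others (8.20%, 5.03% to 13.1%). Of all 93 ribosomal protein promoters, 27 held it around the TSS (29.0%). Outside the ribosomal protein genes the core share was thus near that of all promoters. No ribosomal protein gene had a flank peak only, so core and flank peaks also differed in this class. Motif 1 (GGTCACAC) was present around the summit in 12 core peaks (5.33%) and in 6.76% of all promoters. Around the nearest TSS its share was 5.33% in core peaks (3.08% to 9.09%) and 3.14% in flank peaks (1.81% to 5.41%), with overlapping intervals. No core peak held both words around its summit.

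The word that Kr itself prefers was less frequent. AAGGGTT, on either strand, was present within 100 bp of the summit in 14 core peaks (6.22%, Wilson 95% interval 3.74% to 10.2%), in 42 flank peaks (11.0%, 8.24% to 14.5%) and in 1.71% of all promoters (1.51% to 1.94%). The core and flank intervals overlapped, and both lay above that of all promoters, but windows around flank summits mostly leave out the TSS. Within 100 bp of the nearest TSS, in windows added after seeing the data, 14 core peaks (6.22%) and 5 flank peaks (1.31%, 0.560% to 3.03%) held the word. There the flank share was near that of all promoters and the core share was above both. In the replicates' own highest peaks the share around the summit was 6.74% in core against 10.3% in flank peaks for replicate 2. For replicate 3 it was 4.85% in core against 8.93% in flank peaks. Of the 73 summits within 25 bp of a TSS, 1 held the word (1.37%). At ribosomal protein genes only RpL41 did, 1 of 42. The word was present in 6 of the 25 highest core peaks, at koko, Pngl, RanGAP, RpL41, ghi and Spt3, and in 8 of the other 200 (4.00%). RanGAP, the activating protein of the nuclear transport GTPase Ran, had 120 in replicate 2 and 126 in replicate 3. The 14 peaks with the word had a median signal of 182, against 127 in the 211 core peaks without it, as a description of these peaks.

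Other promoter words divided the ribosomal protein genes from the remaining core peaks. GAGA repeats (GAGAGAG, either strand) were present in 29 of 183 core peaks at other genes (15.8%) and in 0 of 42 at ribosomal protein genes, against 14.4% of flank peaks and 3.69% of all promoters. None of all 93 ribosomal protein promoters held it either. Among the 29 were bnl, pnr, dap, caup, sc, shn and bi, and also Thor, Trf4-1, B52, imd, pita and Df31. These are examples, and the 29 were not sorted into gene classes. The initiator letters TCAGT, placed at the TSS, were present in 16.4% of core peaks at other genes, 2.38% at ribosomal protein genes, 21.2% of flank peaks and 11.7% of all promoters. CTTT within 3 bases of the TSS, the searched form of the TCT initiator, was present in 11 of 42 core peaks at ribosomal protein genes (26.2%) and 3 of 183 at others (1.64%), against 4.71% of flank peaks and 3.24% of all promoters. A TATA box (TATAAA) was present in 4.89% of core peaks, 5.76% of flank peaks and 8.81% of all promoters. The Zelda word CAGGTAG was found in 3 core peaks, at CG6424, Glys and sc, and in 13 flank peaks (3.40%). CAGCTG was present in 13.8% of core peaks, 11.5% of flank peaks and 13.8% of all promoters. A match describes letters only, and binding by the named factors was not measured.

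**Figure D4:**
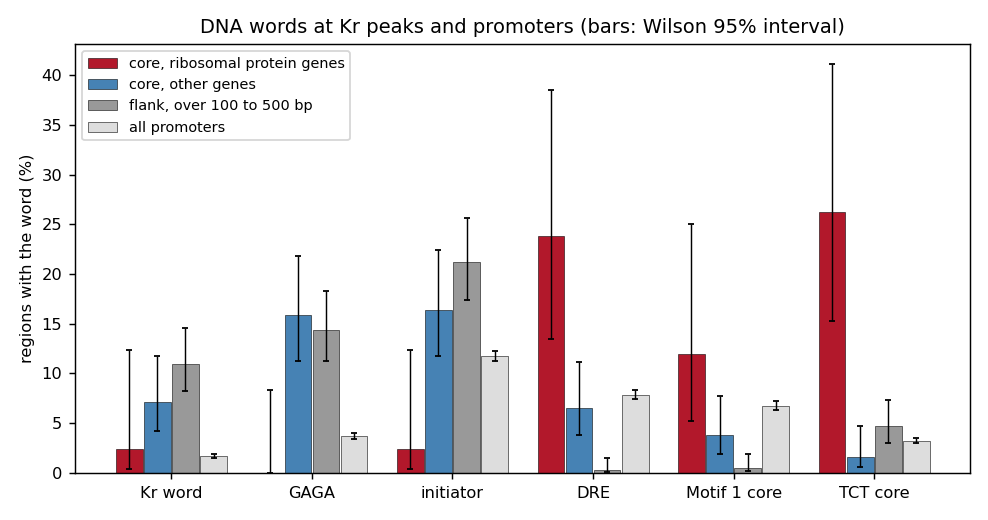
Percent of regions (y axis) holding each word, for core peaks at ribosomal protein genes (red), other core peaks (blue), flank peaks (grey) and all promoters (light grey), with Wilson 95% intervals for counting error. GAGA, DRE, Motif 1 and Kr words were searched for up to 100 bp either side of the summit, or of the TSS for all promoters, and the initiator and TCT words at the TSS. The DRE and Motif 1 bars are low in flank peaks, 0.262% and 0.524%, where the windows mostly leave out the TSS, and the Kr word and GAGA bars are highest in core peaks at other genes or in flank peaks.

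Core peaks with a DRE or Motif 1 also differed in how the replicates saw them. The 34 such peaks had a median of 75.4 in replicate 2 and 73.7 in replicate 3, and a median log2 ratio of replicate 2 to replicate 3 of 0.07. The 191 core peaks without either had a median of 77.7 in replicate 2 and 58.0 in replicate 3, and a median log2 ratio of 0.42. The 29 with GAGA repeats had a median log2 ratio of 0.55. The 14 with the Kr word, 3 of them with a DRE as well, had a median of 97.9 in replicate 2 and 105 in replicate 3. Their median log2 ratio was 0.08, so near-equal replicates were not particular to peaks with a DRE or Motif 1. These are medians over peaks of the same 2 libraries and carry no test.

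Core peaks often had TSSs of both strands nearby. Both were present within 500 bp of the summit in 88 of 225 core peaks (39.1%, Wilson 95% interval 33.0% to 45.6%), against 27.3% of all promoters, counted around the TSS. Around the nearest TSS the share was 38.2% of core peaks. It was 52.4% of those at ribosomal protein genes. In the replicates' own highest peaks the share around the summit was 26.9% of core peaks in replicate 2, near that of all promoters, and 40.5% in replicate 3. The share was 12.3% of flank peaks, but these were chosen to have no TSS of either strand within 100 bp, which bears on that value directly, and no difference is read from it. The count does not require the peak to lie between the TSSs. The 234 genes with a core peak had a median length of 3245 bp, against 5365 bp for the 454 genes with a flank peak only and 2166 bp for all genes. The ribosomal ones among them had a median of 1420 bp, and the rest 4232 bp.

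The share of core peaks was similar over the chromosome arms, between 9.09% on chromosome 4 and 11.5% on 3R. There were 48 core peaks on 2L, 40 on 2R, 50 on 3L, 59 on 3R, 27 on X and 1 on chromosome 4. Along the ranked lists the replicates differed at the top. In replicate 2, 2 of the 100 highest peaks were core (2.00%, Wilson 95% interval 0.550% to 7.0%), and in replicate 3 it was 9 (9.00%, 4.81% to 16.2%). The share was 10.3% in both replicates between rank 1000 and the length of the IDR list. Past rank 10000 it was 5.36% in replicate 2 and 4.78% in replicate 3. Over as many of the highest peaks as the IDR list held it was 9.18% in replicate 2 and 10.8% in replicate 3, a mean of 9.99% ± 1.14 (SD, n = 2).

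**Figure D5:**
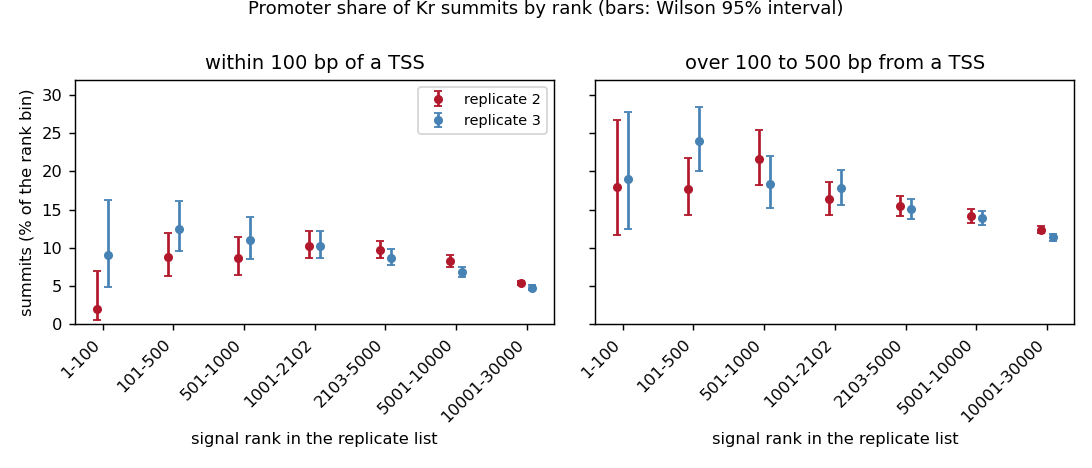
Percent of summits within 100 bp of a TSS (left) and over 100 to 500 bp from one (right), by signal rank in the permissive list of replicate 2 (red) and replicate 3 (blue), with Wilson 95% intervals. The core share is 2.00% in the first 100 peaks of replicate 2 and 9.00% in those of replicate 3, and near 5% in the last bin of both.

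Some core peaks rested mainly on 1 replicate. The pairs most in favour of replicate 2 were CG2059, with 138 in replicate 2 and 22.8 in replicate 3, sc, Miga (76.4 and 22.3), a mitochondrial fusion factor, Jhbp6 (76.9 and 22.7) and sds22 (66.3 and 21.4), a regulator of protein phosphatase 1. The replicate 2 peak matched to CG2059 was matched by another core peak, at CG1677, as well. The pairs most in favour of replicate 3 were pelo, a ribosome-rescue factor, with 55.0 in replicate 2 and 114 in replicate 3 (a replicate 3 peak also matched by a flank peak of pelo), caup (37.5 and 71.7), an Iroquois homeobox gene, PNPase (82.9 and 156), CG40228 (67.9 and 126) and Spt3 (64.4 and 112), a subunit of the SAGA complex. Spt3 shared its peak with DCAF12. The pooled signal of the 5 in favour of replicate 2 ran from 104 (Jhbp6) to 135 (CG2059). That of the 5 in favour of replicate 3 ran from 114 (caup) to 242 (PNPase). The median of all core peaks was 129.

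Peaks close to the distance limit had ordinary signals on both sides. Just inside were CG10433 at 100 bp (signal 123), CG7601 (130) and E(spl)m8-HLH (164) at 99 bp, and CenG1A (265) at 98 bp. Just outside, by 1 bp, was Chro (277), followed by CG13016 (181), Oatp74D (119) and CG11050 (235) at 102 bp, and CG42394 (127) at 103 bp. These values are given as a description of where the limit fell.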

How the data were processed

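Peaks came from 2 biological replicates of 1 group, grouped by the labels. The deposited lists, in narrowPeak format, gave per peak a signal value, the −log10 of a q-value and a summit offset from the authors' calls on each replicate and on pooled reads, and an IDR list. The IDR threshold, peak caller and aligner were not given in the sources used here. Lists existed for dm6 and dm3, and only dm6 was used. Depth is unknown, and intervals cover counting error only.

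Coordinates are 1-based. TSSs were those of all protein-coding transcripts on the main arms (19607 positions, 13945 genes, Ensembl release 115), in Python 3.11.15 with pandas 2.3.3. Each word was searched for up to 100 bp either side of the summit in dm6 sequence. TATA boxes started -45 to -20 and initiators -10 to 5 from the TSS. Core and flank peaks were compared within each replicate, with exact sign-flip tests over the 2 replicates. With 2 replicates, p depends only on whether both differences have the same sign. Only the distance to the TSS, the distance limit and the matching of summits were tested on simulated data, with summits planted at known distances. Members, lists and words were chosen with earlier results of these data known. The ribosomal list was extended to names such as RpL37-1 and the adult list narrowed to leave out Cp190 after values were seen. Genes were named by rule: the 15 highest peaks, up to 4 per list, all of the patterning and activator lists, 5 on either side of the distance limit and 5 extreme replicate ratios each way. Some genes that the rule names are not reported here. Others are marked in the text. Alternatives were other distances, TSS sets, windows around the TSS (added after seeing the data), word windows, matches and the highest 1051 IDR peaks.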

Additional observations from a re-analysis of the deposited data

How the results depend on the processing

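Of 57 alternatives, 44 left the value within its error or within 1.5 times the count and 13 moved it. The core count was 134 at 50 bp and 370 at 200 bp from a TSS, and 104 among the highest 1051 IDR peaks. With those highest peaks the share among the highest of both replicates was 90.4%, the Kr word share 10.6% and the ribosomal count 26. Taking fewer and higher peaks sets the counts and the replicate share, and the cause of the higher word share was not tested. The Kr word share was 10.2% in windows of 200 bp and 11.6% for AAGGGT, both wider searches. The share with TSSs on both strands was 20.9% within 250 bp, a narrower window. The core share of the replicates' highest peaks was 5.73% at 50 bp and 17.4% at 200 bp. Taking the highest peaks of a single replicate, the share with TSSs on both strands was 26.9% to 40.5%. The lower value was that of replicate 2, and the cause was not tested. Without ribosomal protein peaks, an alternative added after seeing the data, the median summit position was -28 bp. No paired analysis was possible because there was only 1 group. Peak lists without reads limit the rest: signal has no known scale and 2 replicates allow no p under 0.5.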
